A study of Mus musculus with 2 samples.

Results

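The group described here holds 10 genes, namely Fos, Fosb, Fosl2, Jun, Junb, Jund, Atf3, Myc, Egr1 and Ier3. It is named after the immediate early response, although Jund is known for steady expression in resting cells. The 10 genes were chosen by symbol from the deposited table of regenerating mouse liver, and all 10 were found among its 33224 gene symbols. Each had 1 row, none shared its row with a second symbol, and none was listed at 0 in either library. Hepatic RNA was sequenced as 1 WT library and 1 KO library, both from male C57BL/6 mice labelled as 4 months of age. KO stands for PPARβ-null mice, which lack PPARβ, the nuclear receptor encoded by Ppard. How the null allele was made is not given in the sources used here. Both livers were collected 48 hr after partial hepatectomy (PH), as the text of the study states, so the surgery was shared by both groups and no liver without PH was analysed here. Whether a library came from 1 mouse or from a pool is not given in the sources used here.

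Immediate early genes are transcribed within minutes of a growth factor, cytokine or stress signal without new protein synthesis, and PH is a classical trigger of them in hepatocytes. Fos and Jun proteins pair through leucine zippers to form AP-1, which binds DNA and regulates genes of proliferation, matrix turnover and stress. Fos proteins pair with Jun proteins, whereas Jun proteins can also pair with each other. Myc pairs with Max and drives genes of growth and ribosome formation, Egr1 is a zinc finger factor switched on by the ERK kinases through serum response factor, and Ier3 encodes a small protein of stress and survival signalling. Immediate early transcripts are typically short-lived, so their levels at 48 hr are those of that hour and not those of the first hours after PH.

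The values are FPKM, which count fragments per kilobase of exon after scaling to the mapped fragments of a library, as estimated by the authors per locus. With 1 library per genotype no test across samples was possible, and the spread between mice was not measured. The 95% intervals given for ratios are exact Clopper-Pearson intervals on estimated fragment numbers and cover counting error only. On a transcript of 1 kb, 1 FPKM stood for about 54.5 WT or 55.7 KO fragments. Hepatocyte markers were abundant in both, as for Ttr, the plasma carrier of thyroxine, at 2503 FPKM in WT against 2406 FPKM in KO. Ppard, the targeted gene (NCBI37, chromosome 17, 28369699 to 28438414), reached 2.67 FPKM in WT against 2.42 in KO, a KO/WT ratio of 0.906 (interval 0.793 to 1.03). The FPKM of the whole Ppard locus thus did not tell the genotypes apart, and its single exons were not analysed here. Expressed genes are those whose mean FPKM was 1 or more, 11723 in number, and their log2 KO/WT had a median of -0.24. Differences are therefore also given relative to this median.

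To show the DNA in front of these genes, the 250 bases upstream of the start site were taken from RefSeq (GRCm38.p6). An entry was found for 8 of the 10 genes, and Egr1 and Myc were not matched. Fos and Junb are printed because they were higher in KO, and Jun and Atf3 because they belong to the same dimer family and were not. The Fos window lies at chr12:85473640-85473889 (plus strand), the Junb window at chr8:84978749-84978998, the Jun window at chr4:95052223-95052472 and the Atf3 window at chr1:191183334-191183583 (the latter 3 on the minus strand). All are written 5′ to 3′ on the strand of the gene, with capitals at matches to any of the motifs searched.
Fos: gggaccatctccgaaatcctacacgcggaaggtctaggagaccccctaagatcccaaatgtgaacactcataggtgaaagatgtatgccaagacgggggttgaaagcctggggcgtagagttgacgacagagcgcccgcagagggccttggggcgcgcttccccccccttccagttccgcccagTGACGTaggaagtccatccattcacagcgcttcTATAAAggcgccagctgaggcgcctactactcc
Junb: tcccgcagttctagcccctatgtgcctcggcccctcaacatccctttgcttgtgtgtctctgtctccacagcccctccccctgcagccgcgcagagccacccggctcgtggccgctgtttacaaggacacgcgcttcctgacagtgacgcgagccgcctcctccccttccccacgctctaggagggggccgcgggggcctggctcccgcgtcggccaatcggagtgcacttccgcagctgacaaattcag
Jun: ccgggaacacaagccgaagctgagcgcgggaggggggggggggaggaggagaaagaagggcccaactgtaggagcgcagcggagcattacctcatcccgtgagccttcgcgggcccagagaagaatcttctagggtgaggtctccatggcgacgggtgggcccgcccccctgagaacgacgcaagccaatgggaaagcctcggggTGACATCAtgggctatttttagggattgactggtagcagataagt
Atf3: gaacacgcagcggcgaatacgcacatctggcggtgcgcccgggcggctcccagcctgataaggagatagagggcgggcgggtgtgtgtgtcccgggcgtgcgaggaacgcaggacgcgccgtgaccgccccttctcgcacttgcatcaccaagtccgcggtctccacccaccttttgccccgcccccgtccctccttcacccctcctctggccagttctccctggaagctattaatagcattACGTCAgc

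The motifs were searched on both strands and did not overlap each other in these windows. TGACGT, the core of the cAMP response element, was found in Fos from -66 to -61 and, on the opposite strand, in Atf3 from -8 to -3, counted from the start site. This word occurred in 6.47% of the 32851 RefSeq promoter windows of the same length. TGACATCA, the variant AP-1 element known from the Jun promoter, was found in Jun from -45 to -38 and in 2.93% of all windows. TATAAA was found in Fos from -33 to -28 and in 12.4% of all windows. TGACTCA (the AP-1 element, 4.46% of windows), CACGTG (the E-box, 6.02%) and the CArG box that serum response factor binds (1.47%) were in none of the 8 windows. Sequence outside these windows, and that of Egr1 and Myc, was not searched, so these genes may hold such elements elsewhere. Junb held none of the motifs. These matches are descriptions of letters and not of bound sites.

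At 48 hr after PH, Fos, Egr1 and Junb were higher in the KO than in the WT library, by 5.9-fold, 3.55-fold and 1.94-fold. Fosl2, Jun, Jund, Atf3 and Myc differed by less than 1.5-fold. Ier3 was 1.89-fold lower in KO, and Fosb was near the limit of detection in both. Folds were called after a pseudocount of 0.1 FPKM was added. The filter of a mean FPKM of at least 0.1, taken without the pseudocount, was passed by 9 of the 10 genes, Fosb being the exception. Of these 9, 3 were at least 1.5-fold higher in KO, against 4.93% of all 15727 genes that passed the same filter. At least 1.5-fold lower was 1 of the 9, against 22.9% of all genes. Relative to the median of expressed genes the counts were again 3 higher and 1 lower, against 8.74% and 14.2% of all genes. At least 2-fold higher were 2 of the 9, Fos and Egr1, and 0 were 2-fold lower, against 2.08% and 9.94%. Over these 9 the log2 KO/WT had its median at 0.00, beside -0.25 over all genes that passed. In liver tissue, a change in the number of cells that express a gene and a change of its RNA per cell cannot be told apart.

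**Figure D1:**
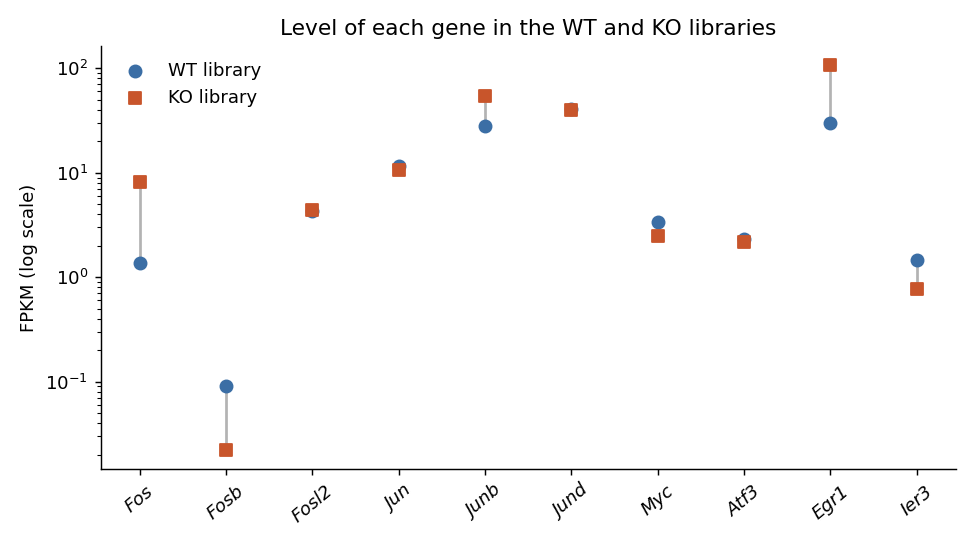
FPKM (log scale) of the 10 genes in the WT library (circles) and the KO library (squares), with a line joining the 2 values of a gene. Fos, Egr1 and Junb lie higher in KO, Ier3 and Fosb lie lower, and the symbols of Jund and Fosl2 lie on top of each other.

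Among the Fos family, Fos (chromosome 12, 86814840 to 86818227) had the largest difference of the 10 genes. Its level was 1.37 FPKM in WT against 8.1 FPKM in KO, about 158 and 951 fragments. The KO/WT ratio of 5.9 had an interval of 4.98 to 7.02, and 99.8% of expressed genes had a lower log2 KO/WT. Relative to their median, Fos was 6.96-fold higher in KO. The WT value exceeded 28% of the genes that passed the filter and the KO value 65.4%, so Fos lay in the lower part of these genes in WT and above their middle in KO.

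Fosl2 (chromosome 5, 32438845 to 32460204), which encodes Fra-2, was level between the libraries. Its level was 4.33 FPKM in WT against 4.4 FPKM in KO, and the ratio of 1.02 had an interval of 0.944 to 1.1. These values rested on about 1382 fragments in WT and 1435 in KO, so counting error is small for this gene. Relative to the median of expressed genes, the log2 KO/WT of Fosl2 was 0.26. Fosb (chromosome 7, 19888070 to 19895394), a close relative of Fos, reached 0.0906 FPKM in WT against 0.0221 in KO, about 18.5 and 4.61 fragments. It was thus 4.11-fold lower in KO with an interval of 1.4 to 13.3, which is opposite in direction to Fos but rests on few fragments. Fosl1, which encodes Fra-1 and was not among the 10 genes, had an FPKM of 0.0432 in WT and was listed at 0 in KO.

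Since FPKM is scaled to length, the levels of family members can be set side by side. Summed over Fos, Fosb, Fosl1 and Fosl2, the Fos family reached 5.83 FPKM in WT against 12.5 in KO, a ratio of 2.15. Fosl2 made up 74.2% of this sum in WT and Fos 23.5%. In KO the order was turned, with 64.7% from Fos and 35.1% from Fosl2. The ratio of Fos to Fosl2 in FPKM was 0.317 (interval 0.268 to 0.375) in WT and 1.84 (interval 1.69 to 2) in KO, so the order of these members differed between the libraries by more than counting error.

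The Jun family was more abundant than the Fos family in both libraries, with a sum of 79.5 FPKM in WT against 105 in KO, 1.32 times as much. Junb (chromosome 8, 87500811 to 87502617), a single-exon gene whose protein can restrain the activity of Jun, reached 27.7 FPKM in WT against 53.8 in KO. Its ratio was 1.94 (interval 1.86 to 2.04), and 2.29 relative to the median of expressed genes. The log2 KO/WT of Junb was above that of 98.1% of expressed genes.

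Jund (chromosome 8, 73221638 to 73224515), the member known for steady expression in resting cells, reached 40.3 FPKM in WT against 40.2 in KO. The ratio was 0.999 with an interval of 0.965 to 1.03, and the log2 KO/WT was 0.24 relative to the median of expressed genes. The predicted gene Gm11175 lies inside Jund on the opposite strand, and its own row reached 7.18 FPKM in WT against 7.36 in KO. The library kit does not mark strand, so reads from this overlap can belong to either gene. Adding the Gm11175 row to Jund left the log2 KO/WT at 0.00.

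Jun itself reached 11.6 FPKM in WT against 10.6 in KO, a ratio of 0.91 (interval 0.854 to 0.969). Its annotated gene lies on chromosome 4 from 94715725 to 94718913, but the deposited row spans 118285 nt because it shares its coordinates with BC042782 and 4930551L18Rik, which have rows of their own. Scaling set the direction of Jun. Its log2 KO/WT was -0.13 as deposited, 0.10 relative to the median of expressed genes and 0.14 with equal upper quartiles. Jund made up 50.6% of the summed Jun family in WT and Junb 34.8%, whereas in KO Junb made up 51.5% and Jund 38.5%. The ratio of Junb to Jund was 0.688 (interval 0.657 to 0.72) in WT and 1.34 (interval 1.29 to 1.39) in KO. As in the Fos family, the leading member was a different gene in each library.

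**Figure D2:**
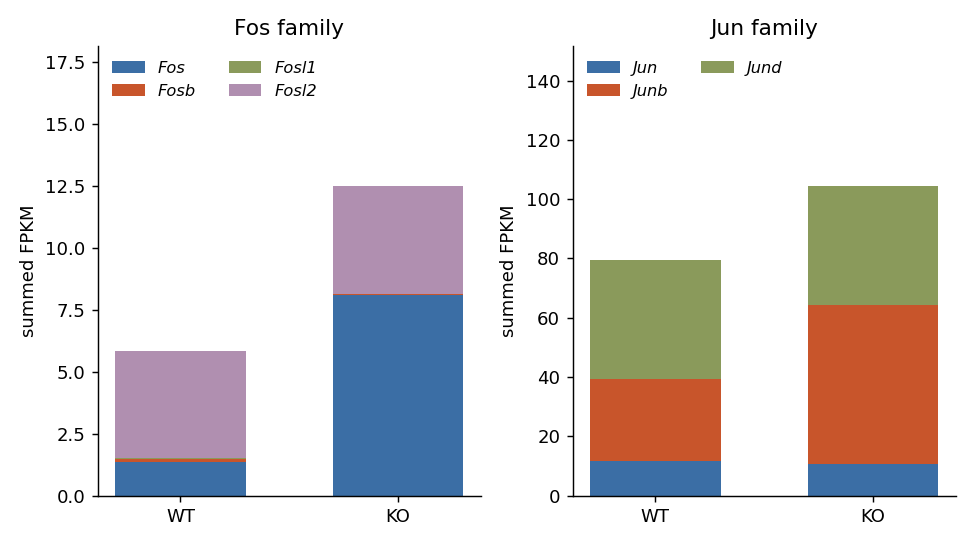
Summed FPKM of the Fos family (left) and the Jun family (right) in the WT and KO libraries, stacked by gene, with 1 library per bar and no error bar. The Fos segment grows from 1.37 to 8.1 and the Junb segment from 27.7 to 53.8, while the Fosl2 and Jund segments keep nearly the same height.

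Atf3 (chromosome 1, 192994175 to 193007219), a stress-induced factor that pairs with Jun proteins, reached 2.33 FPKM in WT against 2.17 in KO. The ratio of 0.933 had an interval of 0.778 to 1.12, which includes 1, so a difference was not detectable at this depth. An effect of the size seen for Fos, Egr1 or Junb lies outside this interval. Like Jun, Atf3 changed sign with the scaling, from a log2 KO/WT of -0.10 as deposited to 0.17 with equal upper quartiles.

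Myc (chromosome 15, 61816946 to 61821929) reached 3.35 FPKM in WT against 2.46 in KO, about 428 and 320 fragments. It was 1.36-fold lower in KO (interval 1.18 to 1.58). Relative to the median of expressed genes this was 1.16-fold, and 29.2% of these genes had a lower log2 KO/WT than Myc. Myc therefore differed beyond counting error in the values as deposited. Its ratio was within 1.5-fold, although the interval reached past that line.

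Egr1 (chromosome 18, 35020472 to 35024763) was the most abundant of the 10 genes in KO. Its level was 30.2 FPKM in WT against 107 FPKM in KO, about 5109 and 18500 fragments. The ratio was 3.55 (interval 3.44 to 3.66), and 4.18 relative to the median of expressed genes. The KO value exceeded that of 95.5% of the genes that passed the filter. The Egr1 row begins ahead of the annotated gene start, which is at 35020861. A pair of rows without a symbol, named here after their values were seen, lie upstream of the Egr1 row, and their distances are counted from that row. The nearer row, 402 nt away and 632 nt long, reached 0.0394 FPKM in WT against 0.726 in KO, about 1.36 and 25.6 fragments, and its ratio of 18.4 had a counting interval of 4.18 to 1044. The farther row, 1085 nt away and 923 nt long, reached 0.145 FPKM in WT against 0.726 in KO, a ratio of 5.02 (interval 2.28 to 13.8). Both rows were thus higher in KO, as Egr1 was, from few fragments.

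Ier3 (chromosome 17, 35958658 to 35959856) was the only one of the 9 genes past the filter to be at least 1.5-fold lower in KO. Its level was 1.47 FPKM in WT against 0.778 FPKM in KO, about 90.9 and 49 fragments. It was 1.89-fold lower in KO (interval 1.33 to 2.74), and 1.61-fold lower relative to the median of expressed genes. Ier3 lies 7.52 Mb from Ppard on the same chromosome. Flot1, which encodes a membrane raft protein and starts 439 nt past the Ier3 row, reached 14.6 FPKM in WT against 12.1 in KO, a ratio of 0.833. With a pseudocount of 1 FPKM the log2 KO/WT of Ier3 was -0.48, under the 1.5-fold line.

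**Figure D3:**
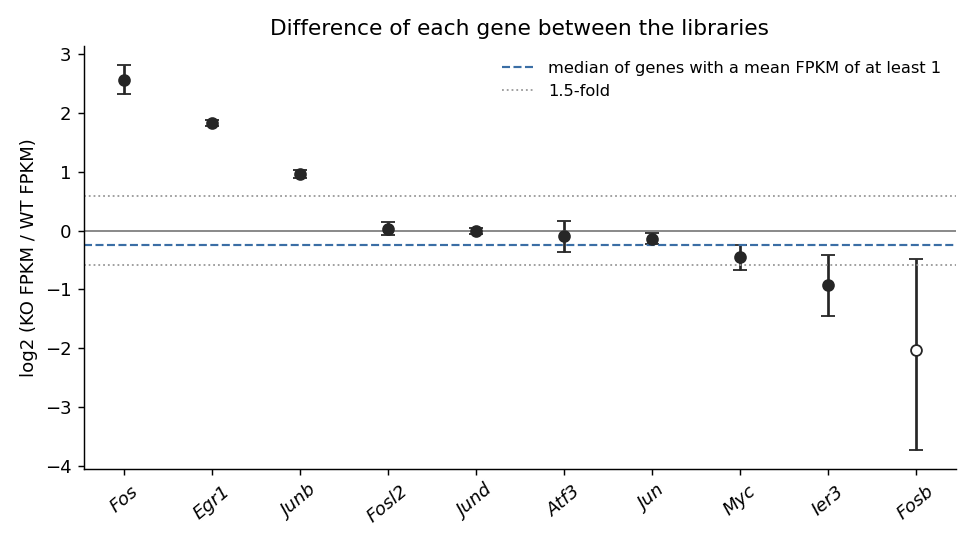
Log2 KO/WT of FPKM without a pseudocount for the 10 genes, ordered by size, with exact 95% intervals for counting error. The open circle marks Fosb, below the filter on low FPKM, the dashed line the median of expressed genes (-0.24) and the dotted lines 1.5-fold. Fos, Egr1 and Junb lie above the upper dotted line, and the intervals of Myc, Ier3 and Fosb cross the lower one.

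The order of the 10 genes was led by Jund in WT, followed by Egr1 and Junb, and then by Jun, Fosl2, Myc, Atf3, Ier3, Fos and Fosb. In KO the order was Egr1, Junb, Jund, Jun, Fos, Fosl2, Myc, Atf3, Ier3 and Fosb. Fos thus stood in the ninth place in WT and in the fifth in KO. Among the 9 pairs of neighbours in each order, the interval of the ratio included 1 for 1 pair in each library. These were Ier3 and Fos in WT (1.07, interval 0.82 to 1.4) and Myc and Atf3 in KO (1.13, interval 0.954 to 1.34). Egr1 and Junb were near each other in WT, with a ratio of 1.09 (interval 1.04 to 1.14), and 1.99-fold apart in KO.

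Other immediate early genes went both ways. Of 29 listed genes 27 passed the filter, 4 were at least 1.5-fold higher and 7 at least 1.5-fold lower in KO, and the median log2 KO/WT was -0.31. Scaling turned this balance, with 6 higher, 3 lower and a median of -0.08 relative to the median of expressed genes. Of all genes past the filter, 4.93% were at least 1.5-fold higher and 22.9% lower in KO, with a median of -0.25. Relative to the median of expressed genes these shares were 8.74% and 14.2%. The 7 of 27 lower genes were thus near the share of all genes. The same shares stand beside the counts of each list that follows. Nr4a1, an orphan nuclear receptor induced along with Fos and Egr1, reached 0.678 FPKM in WT against 5.72 in KO, a ratio of 8.45 (interval 6.83 to 10.7). Zfp36, which encodes the mRNA-destabilizing protein tristetraprolin, reached 35.4 FPKM in WT against 74.4 in KO, a ratio of 2.1. The remaining higher genes, Ier2 (1.78-fold) and Zfp36l1 (1.63-fold), were named after their values were seen. In the opposite direction, Klf6, a zinc finger factor, was 2.89-fold lower in KO, Plk2, a polo-like kinase, 2.06-fold, and Dusp1, a phosphatase that switches off MAP kinases, 2.01-fold. The immediate early genes thus differed in direction among themselves, and Egr2, the nearest relative of Egr1 listed, reached 0.386 FPKM in WT against 0.196 in KO.

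None of the remaining AP-1 leucine zipper genes past the filter was at least 1.5-fold higher in KO. Of 12 genes 10 passed, 3 of them at least 1.5-fold lower, and their median log2 KO/WT was -0.42. Relative to the median of expressed genes 0 of the 10 passed 1.5-fold in either direction. Atf2, which pairs with Jun, reached 11.6 FPKM in WT against 8.97 in KO. The row of Mafg (196 and 162) also names Pcyt2 and Sirt7 and belongs to the joint locus.

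Among 12 genes of the Myc and Max network 1 was at least 1.5-fold higher and 2 were lower in KO, and their median log2 KO/WT was -0.26, close to the -0.25 of all genes. Relative to the median of expressed genes 1 was higher and 1 lower. Mycl1, a Myc paralog, reached 1.75 FPKM in WT against 0.832 in KO, 2.11-fold lower (interval 1.75 to 2.56). The higher gene was Mycn, named after its values were seen, at 0.296 FPKM in WT against 0.733 FPKM in KO. Myc and Mycl1 were thus lower and Mycn higher in KO, all at a lower FPKM than Fosl2. Max, the shared partner, reached 9.26 FPKM in WT against 7.47 in KO. Of 22 Myc target genes 1 was higher and 8 were lower, with a median of -0.41, and relative to the median of expressed genes 1 was higher and 1 lower. Ldha, which encodes lactate dehydrogenase A, was the higher gene, at 549 FPKM in WT against 1133 FPKM in KO, a ratio of 2.07.

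Few of the kinases and transcription factors upstream of these genes passed 1.5-fold. Of 18 genes 0 were at least 1.5-fold higher and 1 was lower in KO. The lower gene, named after its values were seen, was Creb1, at 4.88 FPKM in WT against 3.11 in KO. The log2 KO/WT was below 0 for 15 of the 18 and above 0 for 3. Its median was -0.21, beside -0.25 over all genes that passed the filter. Relative to expressed genes 0 passed 1.5-fold in either direction. Map2k2, which encodes a kinase that activates ERK, reached 55.6 FPKM in WT against 67 in KO, a ratio of 1.2. Mapk14, which encodes p38α, had a ratio of 0.975. Srf, which encodes serum response factor, reached 3.44 FPKM in WT against 3.62 in KO. These are mRNA levels, and the phosphorylation of the kinases was not analysed here.

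Of 14 genes that act as brakes, such as the Dusp phosphatases and Sprouty proteins on ERK and the Nab corepressors on Egr1, 3 were at least 1.5-fold higher and 2 lower in KO. Their median log2 KO/WT was 0.08. After centring on expressed genes 3 were higher and 1 lower, with a median of 0.32. Dusp5, a nuclear ERK phosphatase, reached 0.975 FPKM in WT against 2.15 in KO, a ratio of 2.21 (interval 1.8 to 2.74). Dusp6 and Spry4, which act on ERK signalling and were named after their values were seen, were 1.61-fold and 1.78-fold higher. The lower genes, also named after their values were seen, were Dusp4 (4.74-fold) and Spry2 (1.85-fold). Nab2, a target and corepressor of Egr1, reached 11.8 FPKM in WT against 13.3 in KO, a ratio of 1.12, beside the ratio of 3.55 for Egr1.

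Of 23 genes known as targets of AP-1 or Egr1, 21 passed the filter, 2 were at least 1.5-fold higher and 11 lower in KO. The median log2 KO/WT was -0.66, and 10 genes were at least 1.5-fold lower relative to the median of expressed genes. Fn1, the fibronectin gene, was among the higher genes, at 195 FPKM in WT against 367 FPKM in KO. Lower in KO were Timp1, an inhibitor of matrix metalloproteinases, by 4.8-fold, the chemokine gene Ccl2 by 4.71-fold and the hyaluronan receptor gene Cd44 by 3.03-fold. As deposited, 16 of the 21 targets had a log2 KO/WT below 0, the opposite side from Fos, Egr1 and Junb. Most genes lay on that side. Of expressed genes, 75.6% had a lower log2 KO/WT than Jund, which was at 0.00, so the count of 16 of 21 was near the share of expressed genes. The median of all genes that passed was itself below 0, at -0.25. Relative to the median of expressed genes the targets had a median of -0.42. Of all genes, 22.9% were at least 1.5-fold lower as deposited and 14.2% relative to that median.

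**Figure D4:**
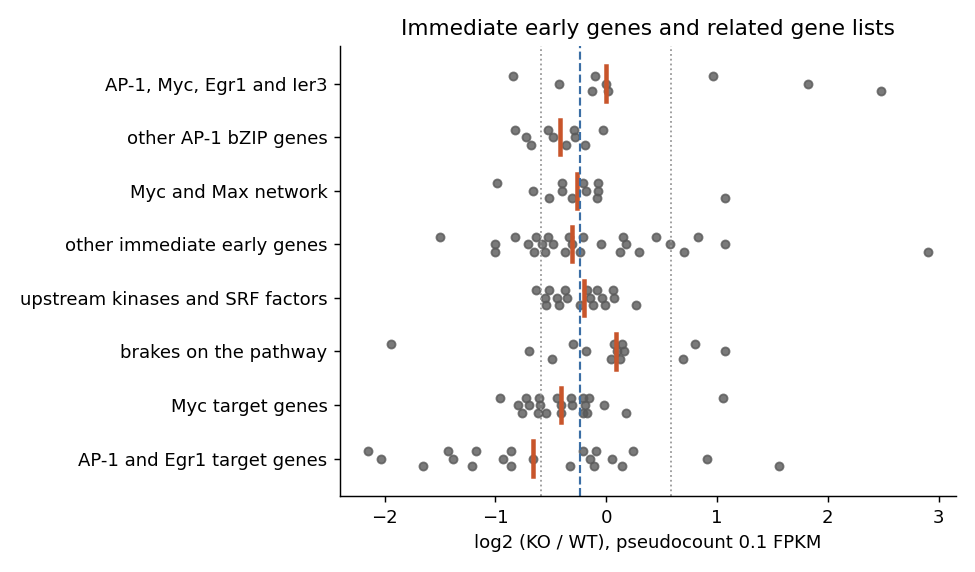
Log2 KO/WT (pseudocount 0.1 FPKM) of each gene with a mean FPKM of at least 0.1, by gene list, with 1 point per gene, the median of a list as a vertical bar, the median of expressed genes (-0.24) as a dashed line and 1.5-fold as dotted lines. The first row holds 9 of the 10 genes described here, and the AP-1 and Egr1 targets have the lowest median, -0.66.

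Immediate early genes are expressed in many liver cells, so markers of other cell types are given beside these values. Of the 9 macrophage markers 0 were at least 1.5-fold higher and 8 were lower in KO, and their summed FPKM was 78.1 in WT and 44.7 in KO. Relative to the median of expressed genes 5 of them were lower. Clec4f and Cd5l, which mark Kupffer cells, had an FPKM of 17.3 and 18.4 in WT and of 10.6 and 10.8 in KO. Summed markers were also lower in KO for neutrophils (15.1 in WT, 8.03 in KO, with Ly6g and Mpo at 0 in both), endothelial cells (50.3 and 36.4), stellate cells (39.4 and 20.1), cholangiocytes (5.36 and 3.06) and lymphocytes (0.816 and 0.401). The 2 most abundant markers of these lists were S100a8 (6.68 in WT, 3.33 in KO) and S100a9 (6.11 and 3.48) for neutrophils, Clec4g (21.8 and 18.9, in a row that also names Gm9814) and Stab2 (9.66 and 6.23) for endothelial cells, and Reln (9.56 and 6.4) and Rgs5 (8.67 and 5.83) for stellate cells. For cholangiocytes they were Sox9 (1.95 and 1.78) and Krt19 (1.72 and 0.559), and for lymphocytes Cd4 (0.34 and 0.127) and Cd79a (0.138 and 0.0765). Relative to the median of expressed genes, 2 of 5 neutrophil, 3 of 7 endothelial and 2 of 7 stellate markers past the filter were at least 1.5-fold lower. So were 2 of 4 cholangiocyte and 1 of 2 lymphocyte markers.

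Of 5 erythroid markers 4 passed the filter, 1 was at least 1.5-fold higher and 0 were lower in KO. The log2 KO/WT had its median at -0.17, or at 0.06 relative to expressed genes. Their sum of 295 in WT and 252 in KO was led by the globin genes Hba-a1 (139 and 113) and Hbb-b1 (136 and 102). The higher gene, named after its values were seen, was Alas2, which encodes the erythroid enzyme that starts heme synthesis, at 20.6 FPKM in WT against 37.5 in KO, a ratio of 1.82 (interval 1.73 to 1.91). Of the 8 hepatocyte markers 2 were at least 1.5-fold higher and 2 lower in KO, and their sum was 15307 in WT and 17296 in KO. The most abundant were Serpina1a (3337 and 4039) and Fgb (2698 and 4534). The 2 lower markers, named after their values were seen, were Cps1 (1597 and 743) and Tat (1115 and 595). As deposited, the summed markers of each of these non-parenchymal cell types were therefore lower in KO, although a few single markers were not. Ier3 and 11 of the AP-1 and Egr1 targets were lower too, while Fos, Egr1 and Junb were higher. The part of cell composition in the values of these genes was not tested.

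**Figure D5:**
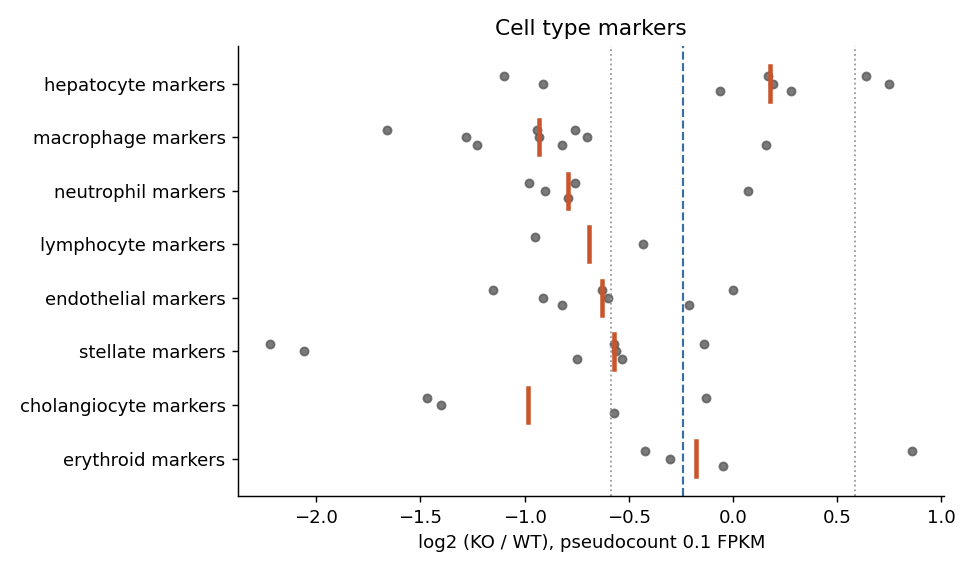
Log2 KO/WT (pseudocount 0.1 FPKM) of cell type markers with a mean FPKM of at least 0.1, with 1 point per gene, the median of a list as a vertical bar, the median of expressed genes (-0.24) as a dashed line and 1.5-fold as dotted lines. The macrophage median was -0.93 and the hepatocyte median 0.18.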

How the data were processed

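Per the paper's methods, the authors mapped reads with TopHat 2.0.0 against NCBI37 (mm9), built transcripts with Cufflinks 1.3.0 and let Cuffdiff estimate 1 FPKM per locus and library. The labels name paired-end reads of 100 bp, the methods single end reads. The authors' fold changes, statistics, p-values and q-values stand in other columns and were not used. Whether FPKM were scaled further is not given in the sources used here.

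Of 38016 loci, 21 marked HIDATA are listed at 0 and were left out, and 2302 had no symbol. Rows of a symbol were summed, and each of the 850 joint rows was given to every symbol named in it. The WT and KO groups come from the genotype labels. Before log2 ratios were taken, 0.1 FPKM was added as a pseudocount, so differences of low genes are understated, and calls were made on this scale. Plain ratios and their intervals used no pseudocount. Depth was estimated from 2847 single-exon genes of at least 600 nt (GENCODE vM1), whose low values pile up at the value of 1 fragment, and fragments of a gene from its longest transcript. Transcript lengths and coordinates are those of NCBI37, and promoter windows those of GRCm38.p6. The depth estimate, the calls and the intervals were tested on simulated libraries. There the intervals used known fragment numbers, so the step from FPKM to fragments by the longest transcript was not tested.

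The genes and lists were chosen with earlier results of these data known. Named were the 10 genes, the targeted gene, of each list every gene whose mean FPKM was 1 or more and which differed at least 2-fold in FPKM or else the 3 most abundant, and of each marker list the 2 most abundant. Others named are partners or relatives of these genes, a neighbour, or a count of 5 or fewer, and were chosen after their values were seen. Some genes that this rule names are not reported here. Computations used scipy 1.17.1 with numpy 2.4.6, tables pandas 2.3.3 and figures matplotlib 3.10.9, all under Python 3.11.15.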

Additional observations from a re-analysis of the deposited data

How the results depend on the processing

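With 1 library per genotype, leaving out a replicate was not possible, and every value describes these libraries. No paired analysis was possible because the labels do not pair the mice and no test was run. Across the 11 alternatives, of which the adding of overlapping rows was chosen after seeing the data, 3 of the genes were at least 1.5-fold higher in KO under each one that kept this fold, and 2 were at least 2-fold higher. The number lower in KO was 1, but 0 at 2-fold or with a pseudocount of 1 FPKM, and 2 without the filter on low FPKM, Fosb being the addition. Log2 KO/WT ranged from 1.94 to 2.75 for Fos, 1.79 to 2.10 for Egr1, 0.93 to 1.23 for Junb and -0.91 to -0.48 for Ier3. Of 80 recomputed log2 values of single genes 65 moved by less than counting error and 15 by more, and no called gene changed sign. Taking the most abundant row alone, or leaving out joint rows, could move none of these values. Each of the genes had 1 row and none was joint, so part of the 65 was fixed in advance. The counts of the genes under those alternatives were fixed in the same way. Centring on the median of expressed genes took the counts at least 1.5-fold lower in KO to 0 for the other AP-1 genes, 1 for the Myc and Max network, 3 for other immediate early genes, 0 for upstream kinases, 1 for the brakes and 1 for Myc targets. Depth limits Fosb most, with about 4.61 fragments in KO.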
